A study of Mus musculus with 12 samples.

Results

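The genes described here encode 7 proteins of the glutamatergic synapse: the kainate receptor subunit Grik1, the NMDA receptor subunit Grin2a, the AMPA receptor auxiliary subunits Shisa9 and Cnih2, the postsynaptic scaffolds Dlg1 and Dlgap2, and the adhesion protein Lrfn4. They were chosen by name, with earlier results of these data known. All 7 were found among the 35129 gene entries of the deposited table, and their RNA was measured in cortical Sst-neurons and Thy1-neurons of mice given nicotine or saline. Sst-neurons came from GIN mice on the FVB background, in which a GadGFP transgene marks a group of somatostatin interneurons with green fluorescent protein. Thy1-neurons came from YFPH mice on the B6 background, in which a Thy1-YFP transgene marks layer V pyramidal neurons. All mice were males of 20 g and 5 to 7 weeks, and a subcutaneous pump delivered nicotine hydrogen tartrate at 48 mg/kg/d (Sst+Nic and Thy1+Nic) or saline (Sst and Thy1) for 14 days. Each library was made from 30 hand-collected cells of 1 mouse, after slices of every group had been kept with blockers of NMDA receptors, AMPA and kainate receptors and sodium channels. Of 12 libraries, 10 were analysed here: 3 of Sst, 2 of Sst+Nic, 2 of Thy1 and 3 of Thy1+Nic. The first replicates of Sst+Nic and Thy1 are not analysed here. Strain differs with cell type throughout, so the effects of the 2 cannot be told apart.

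Glutamate opens AMPA, NMDA and kainate receptors, which are assembled from several subunits. Auxiliary subunits bind AMPA receptors and set how many reach the synapse and how fast they close. Scaffolds with PDZ domains hold receptors and adhesion proteins in the postsynaptic density by gripping the last residues of their tails. Cortical pyramidal neurons receive most of this input on dendritic spines, whereas most interneurons receive it on the shaft of the dendrite.

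Grin2a, Shisa9, Dlgap2 and Lrfn4 encode proteins known for a tail that PDZ domains bind, and Dlg1 is itself a PDZ scaffold. The ends of these 4 reading frames are shown because they are what ties these genes to the scaffolds, each as the last 30 coding bases with the 4 codons before the stop codon in capitals. They were read from the transcripts of GENCODE M21 on GRCm38: Grin2a at chr16:9577827-9577856 on the minus strand, Shisa9 at chr16:12267774-12267803 on the plus strand, Dlgap2 at chr8:14846679-14846708 on the plus strand and Lrfn4 at chr19:4612077-4612106 on the minus strand.
Grin2a: aaaatgcctagtattGAATCTGATGTCtaa
Shisa9: actaacagcaaaacaGAAGTGACTGTCtga
Dlgap2: tacatccctgaggccCAGACGCGGCTCtga
Lrfn4: gcggagcggctggagGAGAGTGTGGTGtga

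The promoters of Dlg1 and Cnih2 are shown because the libraries of both genes lay lower in Sst than in Thy1, as given below with their tests. Each is RefSeq sequence of GRCm38.p6 from 250 bases before to 50 bases after a transcription start, at chr16:31663193-31663492 on the plus strand for Dlg1 (the most upstream of 4 starts) and at chr19:5098472-5098771 on the minus strand for Cnih2. Promoter windows were found for 3 of the 7 genes (Lrfn4 is not shown). Capitals mark the matches, on either strand, to motifs that were searched, namely the E-box CACGTG, the cAMP response element TGACGTCA, the TATA box TATAAA, the GC box GGGCGG and the homeodomain core TAATTA, none of which contains another.
Dlg1: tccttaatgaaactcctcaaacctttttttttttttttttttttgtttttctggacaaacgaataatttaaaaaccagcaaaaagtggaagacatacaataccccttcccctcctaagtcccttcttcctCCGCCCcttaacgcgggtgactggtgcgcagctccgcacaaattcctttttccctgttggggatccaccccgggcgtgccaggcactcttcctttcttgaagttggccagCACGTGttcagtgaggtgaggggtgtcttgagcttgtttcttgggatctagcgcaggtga
Cnih2: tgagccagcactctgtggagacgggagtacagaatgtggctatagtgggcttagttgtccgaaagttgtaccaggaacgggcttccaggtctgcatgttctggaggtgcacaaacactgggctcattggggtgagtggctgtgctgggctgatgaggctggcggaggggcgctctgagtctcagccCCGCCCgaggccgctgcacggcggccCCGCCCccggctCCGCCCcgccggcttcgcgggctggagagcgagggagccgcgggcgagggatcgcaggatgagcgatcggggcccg
The Dlg1 window holds 1 GGGCGG and 1 CACGTG, with 47.3% GC, and the Cnih2 window holds 3 GGGCGG and no match to the others, with 67.3% GC. Of 32851 promoter windows of the same length, 35.7% held GGGCGG, 7.15% held CACGTG, 13.6% held TATAAA, 5.29% held TAATTA and 1.79% held TGACGTCA, and their median GC was 52.7%. These matches are a description of the sequence and do not show binding.

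The unit of level is CPM, fragments of an entry per 1e6 fragments of its library. Totals ranged from 2915738 to 4878326 fragments, and where no fragment was counted a library could still hold 3 fragments, or 0.615 to 1.03 CPM, by counting error alone. The entries of the table could be trusted only in part. In stretches from the start of chromosomes 7, 8, 16 and 19, 55.9% of 680 mRNA entries held at least 500 fragments over all libraries, against 11.3% of 17983 with a position elsewhere. The 913 entries in these stretches or on the mitochondrial genome are called position-checked, and genes are named only from them. CPM and shares are of the fragments in the table: if entries elsewhere hold too few, the totals are too small and all CPM and the mitochondrial share too high, which was not tested. All 7 genes are position-checked. The entries of Grik1, Cnih2 and Dlg1 were also compared with the study's own Sst group values, and that of Grik1 held well under its value, so its levels here may be too low. Grik1 is also the last gene of the stretch on chromosome 16. The check used the Sst libraries alone, so entries were not checked in Sst+Nic, Thy1 or Thy1+Nic libraries. Whether incomplete counting differed between libraries was not tested. Sst, the peptide that defines the interneurons, had 53779 to 126088 CPM in Sst-neuron libraries and 1.15 to 49.2 CPM in 4 of 5 Thy1-neuron libraries, whereas Thy1 replicate 3 had 3795 CPM. Of 34 marker genes on 6 lists, only Sst and Cldn5 (endothelial cells) are position-checked, and Cldn5 had 0 to 35.7 CPM (median 0) in Sst-neuron and 0 to 12.1 CPM (median 0) in Thy1-neuron libraries. Mitochondrially encoded genes took 16.3% to 22.1% of the fragments in Sst-neuron and 31.4% to 38.5% in Thy1-neuron libraries, and with them left out Dlg1 and Shisa9 were still called under saline (edgeR adjusted p = 0.0142 and 0.0145).

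Tests were made with edgeR (quasi-likelihood). The adjusted p is the Benjamini-Hochberg p over all entries tested, and a gene is said to be called when it was under 0.05 with a log2 fold change beyond 1 in either direction. Under saline, 2 of the 7 genes were called, Shisa9 and Dlg1, both lower in Sst than in Thy1. The background was 1.72% of 6350 entries tested (0.898% lower and 0.819% higher in Sst) and 4.78% of 502 position-checked entries. Under nicotine, 1 of 7 was called, Dlg1, again lower in Sst+Nic than in Thy1+Nic, beside 0.507% of 6509 entries (0.277% lower and 0.230% higher in Sst+Nic) and 1.74% of 517 position-checked entries. Over both treatments together, a comparison added after the values had been seen, Shisa9, Dlg1 and Grik1 were called, beside 4.95% of 8242 entries (2.78% lower and 2.17% higher in Sst-neurons) and 13.0% of 548 position-checked entries. At an unadjusted p under 0.05 stood 4 of 7 genes under saline, 3 of 7 under nicotine and 4 of 7 over both, beside 16.3%, 15.8% and 21.6% of all entries and 23.7%, 23.4% and 31.4% of position-checked entries. Since the genes were chosen with earlier results of these data known, these shares are no test of the 7 as a set. The median log2 fold change of the 7 genes under saline was -0.32, also with Shisa9 at its bound. That of all entries was 0.05, and that of position-checked entries was -0.083. With library totals in place of TMM factors, the median of all entries moved from 0.05 to 0.22 under saline and from 0.09 to 0.59 under nicotine.

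**Figure D1:**
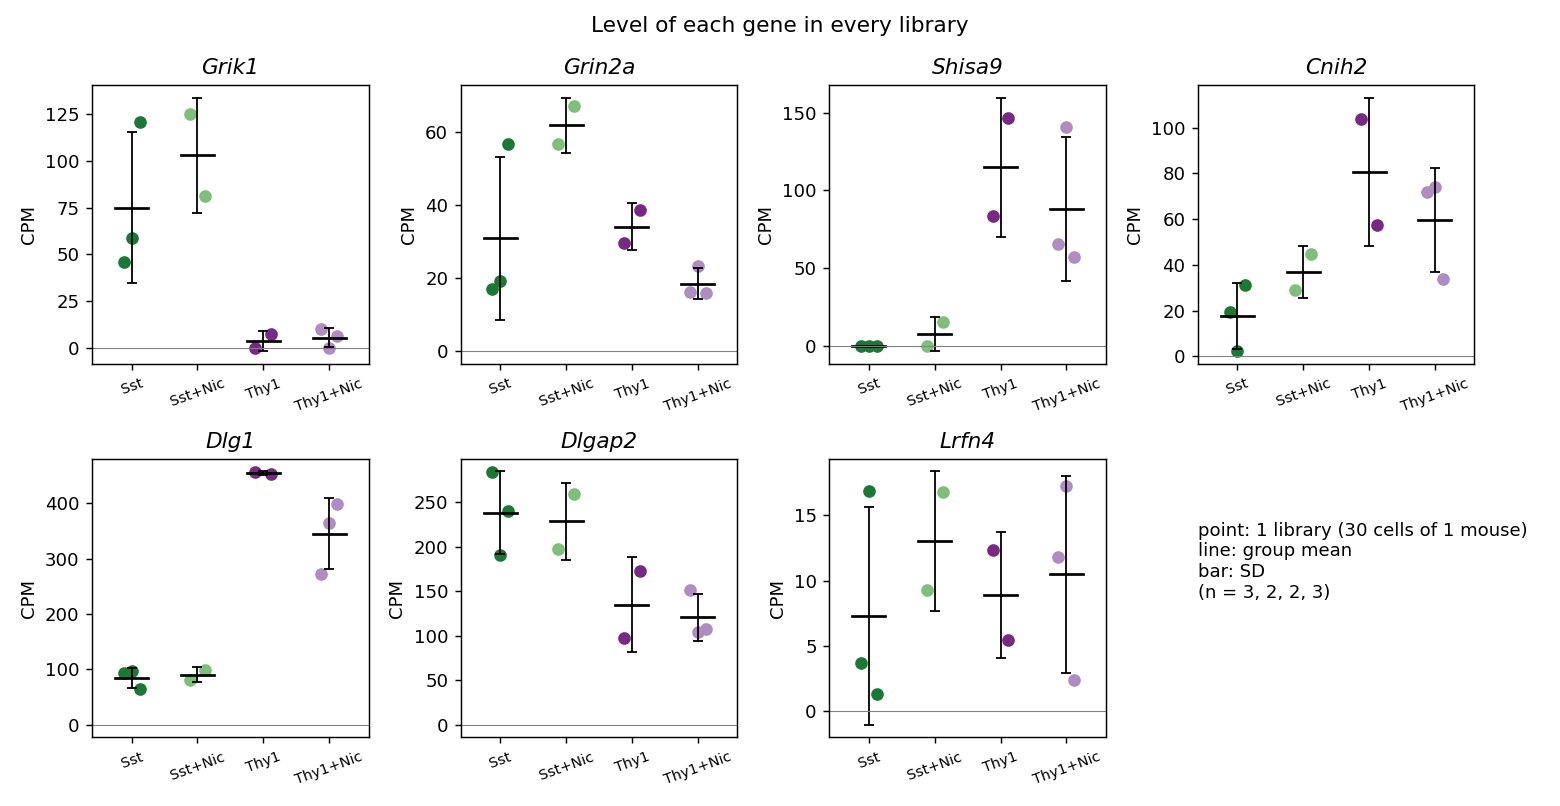
CPM of each gene in every library, with points for libraries, lines for group means and bars for SD (n = 3 Sst, 2 Sst+Nic, 2 Thy1 and 3 Thy1+Nic). The libraries of the cell types do not overlap for Grik1, Shisa9 and Dlg1, nor in this CPM for Dlgap2, whose libraries overlap when scaled by TMM factors or without mitochondrially encoded genes, and they overlap for Grin2a, Cnih2 and Lrfn4.

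Grik1 (chromosome 16, 87895901 to 88290863, minus strand, with all gene positions from RefSeq on GRCm38) encodes the kainate receptor subunit GluK1, known from cortical interneurons. Its level was 45.7, 58.7 and 121 CPM in Sst and 125 and 81.4 CPM in Sst+Nic. In Thy1 it had 0 counts and 7.41 CPM, and in Thy1+Nic 10.4 CPM, 0 counts and 6.48 CPM. The groups did not overlap, and the lowest Sst-neuron library stood above the highest Thy1-neuron library. In libraries of 30 cells, fewer cells with a transcript and less of it per cell cannot be told apart. Under saline the log2 fold change was 4.10 ± 1.43 SE in favour of Sst (edgeR adjusted p = 0.219), and under nicotine it was 3.71 ± 1.22 SE (edgeR adjusted p = 0.226), neither of which was called. Under saline the value was 3.04 without Thy1 replicate 2 and 11.16 without Thy1 replicate 3, where the fold is set against a library at 0 and is no bound. Under nicotine it was 4.63 without Thy1+Nic replicate 1, 3.14 without Thy1+Nic replicate 2 and 5.52 with the replicate number as a block. DESeq2 called both, at an adjusted p of 0.0189 and 0.0338, beside 8.87% and 7.80% of all entries. edgeR without a filter on low counts also called both (adjusted p = 2.48e-05 and 9.05e-05), and its bias-adjusted fit called the second (adjusted p = 0.0191). Over both treatments Grik1 was higher in Sst-neurons by 3.90 ± 1.04 SE on the log2 scale and passed narrowly (edgeR adjusted p = 0.0497), with 7.41 without Thy1 replicate 3. It lost that call without Sst replicate 1 (0.0574), 2 (0.0736) or 3 (0.0843), without Thy1+Nic replicate 1 (0.0577) or 3 (0.0775), and without the mitochondrially encoded genes (edgeR adjusted p = 0.0517). Among Thy1-neuron libraries, Thy1 replicate 3 had 3795 CPM of Sst and 7.41 CPM of Grik1, and Thy1+Nic replicate 1 had 49.2 CPM of Sst and 10.4 CPM of Grik1. Thy1+Nic replicate 3 had 1.77 CPM of Sst and 6.48 CPM of Grik1, and Thy1 replicate 2 and Thy1+Nic replicate 2, with 1.15 and 2.36 CPM of Sst, had 0 counts of Grik1. Without Thy1 replicate 3, Grik1 was called under saline (edgeR adjusted p = 0.0468) against a single Thy1 library with 0 counts, and the part of Sst-neuron RNA in that library was not tested.

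Grin2a (chromosome 16, 9567901 to 9996083, minus strand) encodes GluN2A, the NMDA receptor subunit that becomes common as the cortex matures. It had 16.9, 19.1 and 56.7 CPM in Sst, 56.6 and 67.2 CPM in Sst+Nic, 29.5 and 38.7 CPM in Thy1, and 16.1, 23.4 and 15.9 CPM in Thy1+Nic. Sst replicate 3 stood apart from the other saline Sst libraries and was as high as the nicotine libraries. The cell types overlapped under saline (log2 fold change -0.32 ± 0.72 SE, edgeR adjusted p = 0.932), and the value was -1.07 without Sst replicate 3. Under nicotine Sst+Nic lay above Thy1+Nic without overlap, with a log2 fold change of 1.23 ± 0.56 SE that was not called (edgeR adjusted p = 0.342).

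Shisa9 (chromosome 16, 11983593 to 12270904, plus strand) encodes CKAMP44, an auxiliary subunit that changes how AMPA receptors desensitize. It had 0 counts in all 3 Sst libraries and in Sst+Nic replicate 2, and 15.4 CPM (75 counts) in Sst+Nic replicate 3. Thy1 libraries had 83.4 and 147 CPM and Thy1+Nic libraries 65.4, 141 and 57.4 CPM. Every Thy1-neuron library was therefore above every Sst-neuron library, and the only Sst-neuron library with the transcript was 1 of nicotine. Under saline Shisa9 was called, lower in Sst than in Thy1 (edgeR adjusted p = 0.0120). With each Sst library set to its limit of 3 counts, the Thy1 mean of 115 CPM was 149-fold higher. This bound covers counting error in the Sst libraries alone. It leaves out the spread between libraries, such as that of the Thy1 libraries at 83.4 and 147 CPM. Without Thy1 replicate 3 the edgeR adjusted p was 0.0534, and without each of the others it stayed under the threshold, with a maximum of 0.0465. Under nicotine it had a log2 fold change of -3.90 ± 1.42 SE (edgeR adjusted p = 0.247), which was not called. DESeq2 (adjusted p = 0.0217), the bias-adjusted fit of edgeR (adjusted p = 0.0402) and edgeR without a filter on low counts (adjusted p = 2.53e-06) called it. Its size rests on Sst+Nic replicate 3, the library with 75 counts: without it the fitted value was -11.47, against a library at 0 (edgeR adjusted p = 0.00726), and without Sst+Nic replicate 2 it was -2.94. Over both treatments Shisa9 was called at an edgeR adjusted p of 0.00458, and between 1.29e-06 and 0.0138 when each library was left out.

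Cnih2 (chromosome 19, 5092868 to 5098521, minus strand) encodes a cornichon protein that accompanies AMPA receptors out of the endoplasmic reticulum and slows their closing. It had 19.4, 2.30 and 31.3 CPM in Sst, 28.8 and 44.9 CPM in Sst+Nic, 104 and 57.7 CPM in Thy1, and 71.7, 74.0 and 33.6 CPM in Thy1+Nic. The saline groups did not overlap, but the nicotine groups did, since Thy1+Nic replicate 3 lay below Sst+Nic replicate 3. The value of 2.30 CPM in Sst replicate 2 rests on 9 counts (95% Wilson interval 1.21 to 4.36 CPM). The log2 fold change was -2.39 ± 0.90 SE under saline (edgeR adjusted p = 0.255), -1.20 ± 0.61 SE under nicotine (edgeR adjusted p = 0.411) and -1.80 ± 0.58 SE over both (edgeR adjusted p = 0.100). With a library left out it ran from -3.15 (without Sst replicate 3) to -1.92 (without Sst replicate 2) under saline and from -1.75 to -0.84 under nicotine. None was called by this test, whereas DESeq2 called the last at an adjusted p of 0.0205, beside 10.6% of all entries. The bias-adjusted fit of edgeR also called the last (adjusted p = 0.0246), and edgeR without a filter called the first and the last (adjusted p = 0.0106 and 0.00490). Cnih2 shares 14 exon bases (1.02% of its exons) with Yif1a on the opposite strand, and the library kits do not mark strand.

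Dlg1 (chromosome 16, 31663443 to 31873356, plus strand) encodes SAP97, a PDZ scaffold that carries AMPA and NMDA receptors to the membrane. Its level was 92.5, 97.2 and 63.7 CPM in Sst, 81.3 and 99.6 CPM in Sst+Nic, 457 and 452 CPM in Thy1, and 273, 364 and 398 CPM in Thy1+Nic. All Sst-neuron libraries lay below all Thy1-neuron libraries, with a wide gap between them. Under saline it was 6.01-fold lower in Sst (log2 fold change -2.59 ± 0.31 SE, edgeR adjusted p = 0.0120). This call was lost at an edgeR adjusted p of 0.0518 without Sst replicate 1, 0.0509 without Thy1 replicate 2 and 0.0549 without Thy1 replicate 3. Under nicotine it was 5.32-fold lower in Sst+Nic than in Thy1+Nic (log2 fold change -2.41 ± 0.37 SE, edgeR adjusted p = 0.0443). That call was lost when any of the 5 libraries was left out (edgeR adjusted p between 0.0561 and 0.183), with library totals (0.0740) and with the replicate number as a block (0.141). Over both treatments Dlg1 was lower in Sst-neurons with a log2 fold change of -2.50 ± 0.24 SE (edgeR adjusted p = 0.000108), and this call held when each of the 10 libraries was left out (adjusted p between 2.52e-06 and 0.000436).

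**Figure D2:**
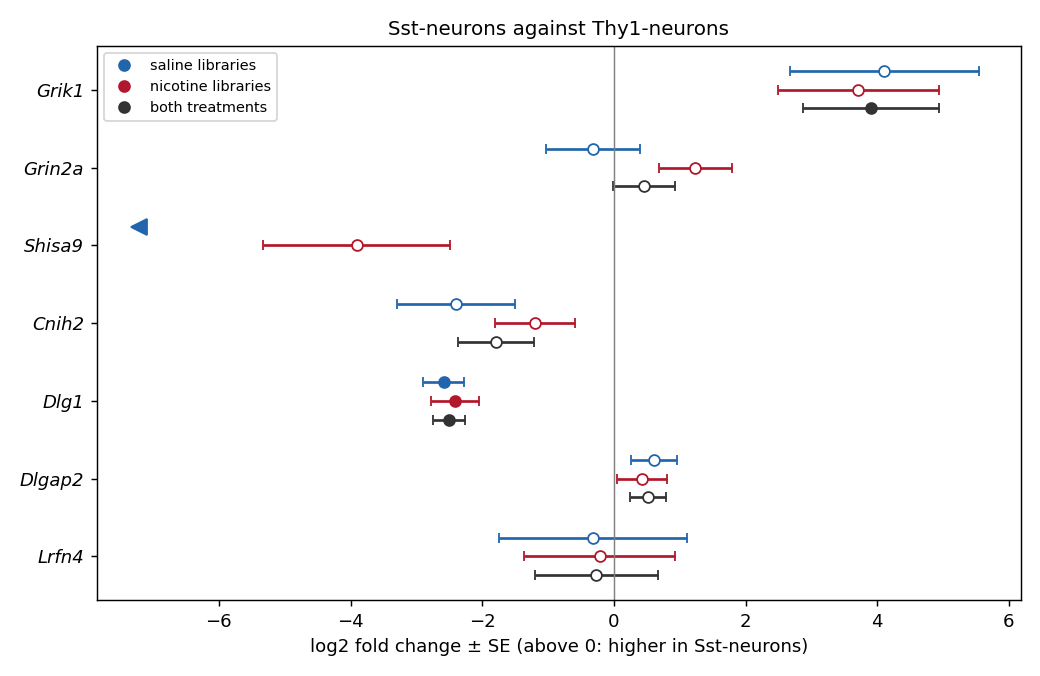
Log2 fold change ± SE of each gene between Sst-neurons and Thy1-neurons for saline libraries (n = 3 against 2), nicotine libraries (2 against 3) and both together (5 against 5), with filled points for called genes. The triangle of Shisa9 is its bound under saline, set by counting error alone. Its value over both treatments is not drawn, since it rests on libraries at 0, whereas the 3 values of Dlg1 lie between -2.59 and -2.41.

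Dlgap2 (chromosome 8, 14095776 to 14853426, plus strand) encodes a SAPAP protein that links PDZ scaffolds to Shank proteins deeper in the postsynaptic density. It had 284, 191 and 241 CPM in Sst, 198 and 260 CPM in Sst+Nic, 97.4 and 173 CPM in Thy1, and 151, 104 and 107 CPM in Thy1+Nic. In CPM all Sst-neuron libraries lay above all Thy1-neuron libraries, but the nearest, at 191 and 173 CPM, were close. This order depended on the scaling. With the TMM factors of the fit over both treatments, Dlgap2 ran from 147 to 242 scaled CPM in Sst-neuron and from 98.0 to 196 in Thy1-neuron libraries, and with mitochondrially encoded genes left out of the total from 236 to 361 and from 143 to 269, so that the libraries overlapped. The log2 fold change was 0.61 ± 0.35 SE under saline (edgeR adjusted p = 0.473), 0.43 ± 0.38 SE under nicotine (edgeR adjusted p = 0.732) and 0.52 ± 0.27 SE over both (edgeR adjusted p = 0.291). None of these was called.

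Ratios of 2 genes were compared between libraries. They are not corrected for gene length, so a ratio does not say which of the 2 genes had the higher level. The count of Dlg1 divided by that of Dlgap2 in the same library, a ratio that needs no scaling between libraries, was 0.265 to 0.510 (median 0.384) in the 5 Sst-neuron libraries and 1.80 to 4.69 (median 3.49) in the 5 Thy1-neuron libraries. The ratio of Dlg1 to Grin2a ran from 1.12 to 5.47 in the former libraries and from 11.7 to 25.0 in the latter. That of Cnih2 to Dlgap2 ran from 0.0120 to 0.173 and from 0.313 to 1.06. These ratios were chosen after the levels had been seen, and no test was made of them.

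**Figure D3:**
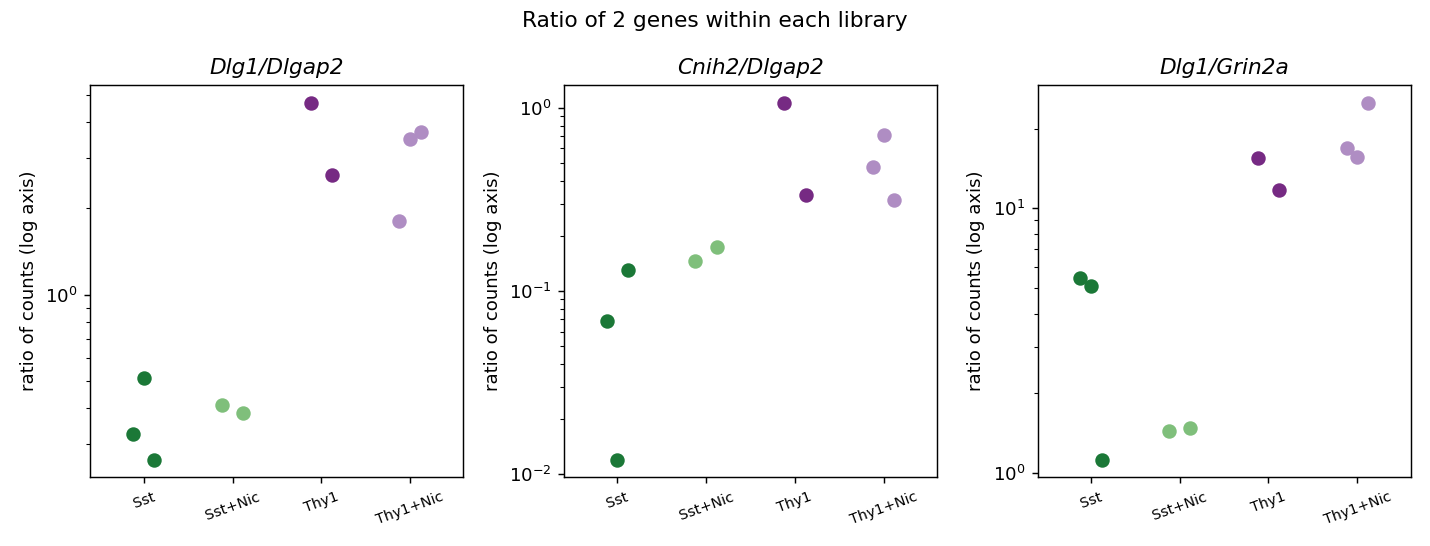
Ratio of the counts of 2 genes within each library on a log axis, with 1 point per library in 4 groups. Sst-neuron and Thy1-neuron libraries are apart in all 3 panels, with Dlg1/Dlgap2 at most 0.510 in the former and at least 1.80 in the latter.

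Lrfn4 (chromosome 19, 4611784 to 4615667, minus strand) encodes the adhesion protein SALM3, which spans the cleft to presynaptic receptor phosphatases. It had 3.73, 16.8 and 1.35 CPM in Sst, 9.26 and 16.8 CPM in Sst+Nic, 12.3 and 5.49 CPM in Thy1, and 11.8, 17.3 and 2.36 CPM in Thy1+Nic. All 4 groups overlapped, and counts per library ran from 5 to 82. The log2 fold change between the cell types was -0.32 ± 1.42 SE under saline (edgeR adjusted p = 0.976) and -0.22 ± 1.15 SE under nicotine (edgeR adjusted p = 0.979), and its sign turned to 0.32 under nicotine with library totals. Both standard errors exceed 1 on the log2 scale, so a difference of that size was not detectable here.

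Without overlap between the libraries of the cell types stood 5 of the 7 genes under saline and 5 of 7 under nicotine, where 35.3% and 39.0% of all entries tested and 40.6% and 42.7% of position-checked entries did. Over both treatments 4 of 7 did, Grik1, Shisa9, Dlg1 and Dlgap2, beside 8.46% of all entries tested and 15.3% of position-checked entries. Dlgap2 was lost from these counts in part of the other scalings. With TMM factors 5 of 7 were apart under saline, 4 of 7 under nicotine and 3 of 7 over both, beside 35.2%, 34.6% and 8.17% of all entries tested. With mitochondrially encoded genes left out 4, 5 and 3 of 7 were, beside 34.5%, 35.6% and 8.14%. Grik1, Shisa9 and Dlg1 were apart in all 3 comparisons under each of these scalings. Here too, the choice of genes with earlier results known means that the shares are no test of the 7 as a set.

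Levels of different genes in a group were compared per kilobase of exon (GENCODE M21; the annotation behind the counts is not given in the sources used here). In Sst the order was Dlgap2 at 38.8 ± 7.58 CPM per kb (SD, n = 3), Cnih2 at 12.9 ± 10.7, Grik1 at 11.2 ± 5.98, Dlg1 at 7.87 ± 1.69, Lrfn4 at 2.17 ± 2.48, Grin2a at 1.72 ± 1.25 and Shisa9 with 0 counts. Among neighbours with counts, only Dlgap2 and Cnih2, and Dlg1 and Lrfn4, were further apart than their SDs. In Thy1 the order was Cnih2 at 58.9 ± 23.8 CPM per kb (SD, n = 2), Dlg1 at 42.3 ± 0.31, Dlgap2 at 22.0 ± 8.69, Shisa9 at 21.9 ± 8.53, Lrfn4 at 2.65 ± 1.43, Grin2a at 1.90 ± 0.36 and Grik1 at 0.551 ± 0.780. Here Cnih2 and Dlg1 did not differ beyond their SDs, nor did Dlgap2 and Shisa9 or Lrfn4 and Grin2a. Grin2a and Lrfn4 were near the bottom of both orders. The levels of Grik1 may be too low, as stated above, so its place in these orders is uncertain.

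Nicotine was compared with saline within each cell type, and the comparisons share their saline libraries with those above. None of the 6 genes tested in Sst-neurons and none of the 7 in Thy1-neurons was called, beside 0% of 6689 and 0% of 6048 entries. At an unadjusted p under 0.05, edgeR had 280 (4.19%) and 264 (4.37%) entries and none of these genes, and DESeq2 called 18 (0.269%) and 14 (0.231%) entries and none of these genes. Of position-checked entries 3.39% and 5.82% had an unadjusted p under 0.05. Shisa9 did not pass the filter on low counts in Sst-neurons. In Sst-neurons Cnih2 had a log2 fold change of 0.93 ± 1.00 SE, which ran from 0.39 to 1.72 with a library left out, and Grin2a had 0.79 ± 0.67 SE, which ran from 0.46 to 1.56. In Thy1-neurons Grin2a had a log2 fold change of -0.77 ± 0.59 SE (unadjusted p = 0.228) and Dlg1 -0.30 ± 0.28 SE (unadjusted p = 0.321). Both had lower CPM in every Thy1+Nic library than in every Thy1 library, and 20.9% of all entries tested had groups apart in either direction. In Sst-neurons none of the 6 genes had groups apart, beside 20.8% of all entries. For Dlg1 and Dlgap2, which had the narrowest errors in Sst-neurons, the log2 fold changes with nicotine there were -0.11 ± 0.40 SE and -0.24 ± 0.30 SE.

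Grin2a had fitted values of similar size on both sides of 0, 0.79 in Sst-neurons and -0.77 in Thy1-neurons, neither of which passed the test. Its interaction of nicotine and cell type, fitted on all 10 libraries, was 1.54 ± 0.92 SE on the log2 scale (unadjusted p = 0.119, edgeR adjusted p = 0.757), so a difference between the cell types was not shown. Cnih2 had an interaction of 1.17 ± 1.11 SE (edgeR adjusted p = 0.887). Shisa9 had the smallest unadjusted p of the 7 (0.00555, edgeR adjusted p = 0.672). It rests on the 75 counts of Sst+Nic replicate 3, since the edgeR adjusted p was 0.00256 without Sst+Nic replicate 2 and 1.00 without Sst+Nic replicate 3. Without a filter on low counts it was called (edgeR adjusted p = 4.32e-07). No entry of 8242 was called in the interaction (0%), 605 (7.34%, and 8.76% of position-checked entries) had an unadjusted p under 0.05, and DESeq2 called 11 (0.133%). Of the 7 genes, 1 (Shisa9) had an unadjusted p under 0.05.

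**Figure D4:**
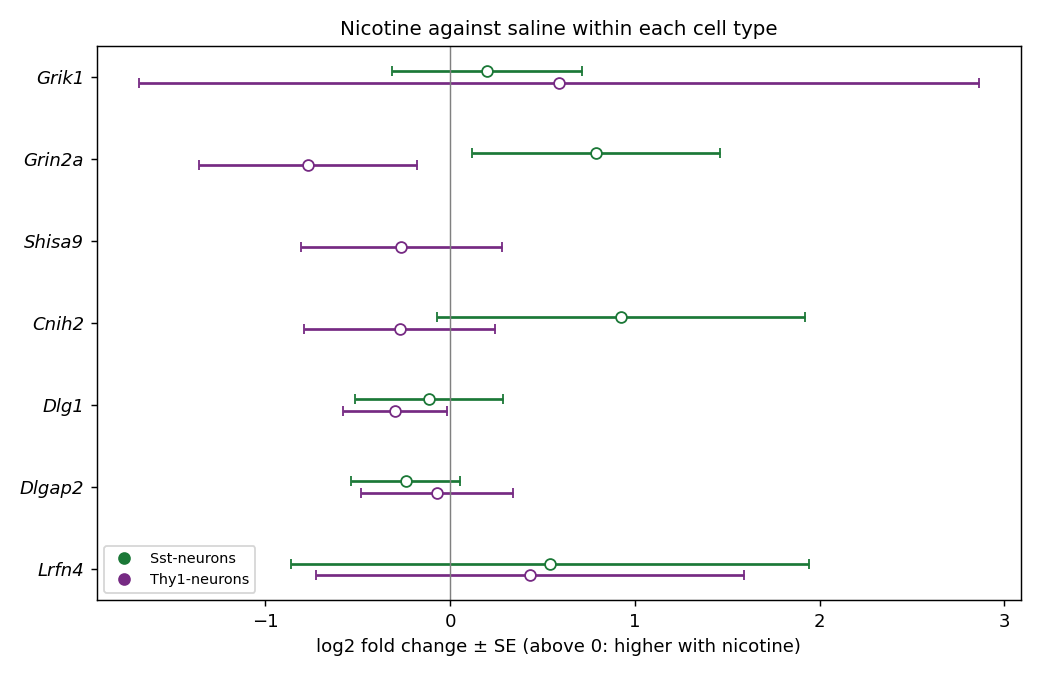
Log2 fold change ± SE of each gene between nicotine and saline in Sst-neurons (n = 2 against 3) and Thy1-neurons (n = 3 against 2), with open points for genes not called. All points are open, Grin2a lies at 0.79 for Sst-neurons against -0.77 for Thy1-neurons, and Shisa9 was not tested in Sst-neurons.

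**Figure D5:**
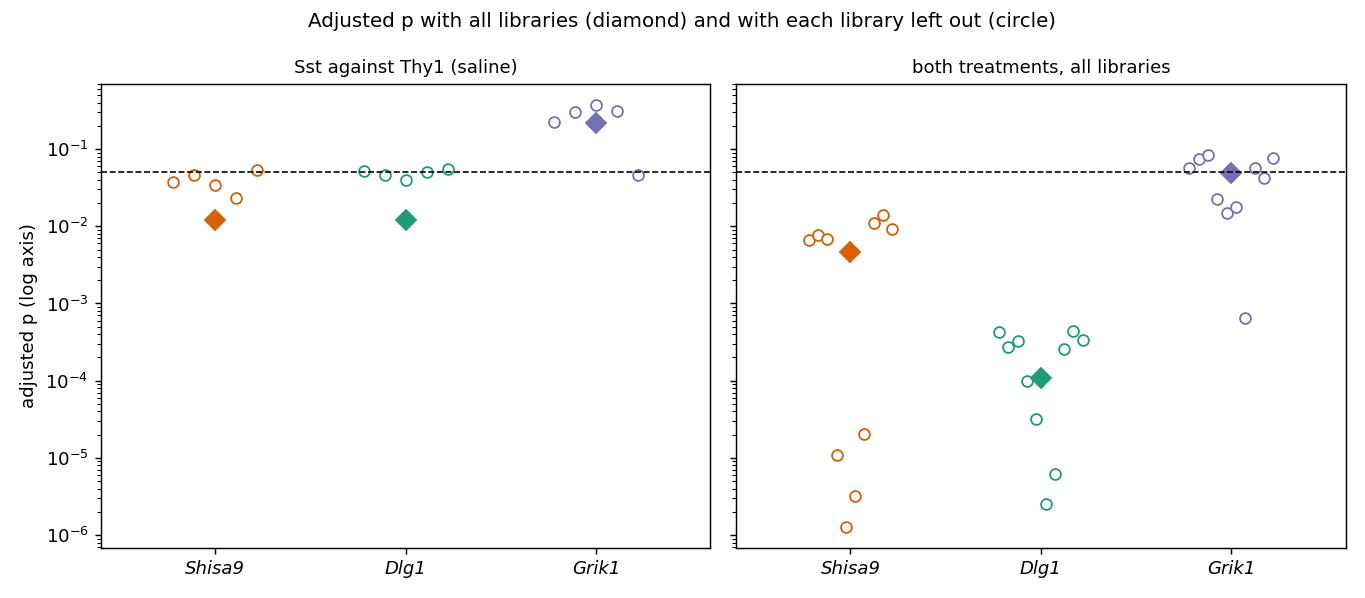
Calls with libraries left out, as the edgeR adjusted p on a log axis with all libraries (diamonds) and with each library left out (circles), for saline libraries and for both treatments, with a dashed line at 0.05. Circles of Shisa9 and Dlg1 lie on both sides of the line under saline and all below it over both treatments, whereas those of Grik1 lie on both sides in both panels.

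Other genes of the glutamatergic synapse were taken from 7 lists with 86 genes, of which 84 are in the table and 11 are position-checked. Of 12 kainate and NMDA receptor subunits 2 are position-checked, of 6 AMPA and delta receptor subunits and 7 metabotropic receptors 0, of 17 auxiliary subunits 2, of 18 scaffolds 2 and of 12 adhesion proteins 1, and all of these are among the 7 genes. Of 14 signalling partners 4 are position-checked, and 3 are described here: the adenylyl cyclases Adcy5 and Adcy9 and the kinase Gsk3b. Adcy9 had -1.26 ± 0.54 SE over both treatments (unadjusted p = 0.0361, edgeR adjusted p = 0.199) and Gsk3b 0.56 ± 0.24 SE (unadjusted p = 0.0380, edgeR adjusted p = 0.203), and neither was called. Under nicotine Gsk3b had 1.31 ± 0.42 SE (edgeR adjusted p = 0.224) and Adcy9 -1.18 ± 0.47 SE (edgeR adjusted p = 0.282), neither of them called. With nicotine Gsk3b had -0.95 ± 0.36 SE in Thy1-neurons (unadjusted p = 0.0290, edgeR adjusted p = 1.00), and its interaction was 1.48 ± 0.47 SE (unadjusted p = 0.00864, edgeR adjusted p = 0.672). Adcy5 had no unadjusted p under 0.05 in any comparison.

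For each gene the position-checked entry with the most similar profile was found as the smallest mean absolute difference of centred log2(CPM + 1) over the 10 libraries, among entries with a mean of at least 10 CPM. Dlgap2 was nearest to the splicing factor Rbfox1, with a difference of 0.20 against a median of 0.71 over 414 entries, and Dlg1 to the transcription factor Etv5, with 0.29 against 1.26. Grin2a was nearest to Cxadr (0.39 against 0.81), Cnih2 to Ydjc (0.54 against 1.20), Shisa9 to the Nogo receptor Rtn4r (0.56 against 3.05), Lrfn4 to Cst6 (0.67 against 1.10) and Grik1 to the transcription factor Zbtb20 (0.88 against 2.18). These are descriptions over libraries of 4 groups that differ in cell type, and no test was made of them.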

How the data were processed

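RNA from 30 neurons per mouse was amplified with the SMARTer kit, and libraries were made with the NuGEN Ovation system. The authors aligned the reads with TopHat to GRCm38 and deposited fragment counts per gene entry, without normalization; the submitters' processing notes also name HTSeq. The counts were used as deposited, for 10 libraries of 2915738 to 4878326 fragments; no entry lacked a name. Position-checked entries (913) were those in stretches from a chromosome start, with mitochondrially encoded genes. In these stretches the genes compared held, in the Sst libraries, between 0.3 and 3 times the study's Sst group value.

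Each comparison used the libraries of its 2 groups, and the interaction and the comparison over both treatments used all 10, with the quasi-likelihood test of edgeR 4.0.16 (R 4.3.3), TMM factors, filterByExpr (minimum count 10) and Benjamini-Hochberg adjustment over all entries tested. The SE of a log2 fold change is its size divided by the root of its F statistic. The fits of 2 groups were run on simulated counts with a smaller dispersion than was estimated for them here (0.826 to 1.01). That run therefore does not show how the fits perform on these data. Each library is 1 mouse. Alternatives were DESeq2 1.42.0, RLE factors, library totals, no filter, mitochondrially encoded genes left out, the replicate number as a block, no fold-change threshold, all libraries in 1 fit and each library left out; position-checked entries alone, the bias-adjusted quasi-likelihood fit, other scalings of the levels and the comparison over both treatments were added after seeing the data. The text names the 7 genes, listed synapse genes by count (with values if called or at an unadjusted p under 0.05), Sst, Cldn5 and the nearest profile of each gene; 1 listed gene is not reported here. Genes, lists and tests were chosen with earlier results of these data known. Levels and figures were made with Python 3.11.15, pandas 2.3.3 and matplotlib 3.10.9. Wilson intervals (95%) cover counting error only. The study's fold changes were not used. Its lists of differentially expressed genes and pathway genes supplied the genes and Sst group values compared for the position check.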

Additional observations from a re-analysis of the deposited data

How the results depend on the processing

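Of 630 refitted log2 fold changes of the 7 genes, 553 kept their sign and side of the threshold, 16 became called, 17 lost their call and 44 changed sign, none of them a call. Most of the 630 were refits of values not called in the main fits, so the 553 do not show how stable the calls were. The losses fell on Shisa9 and Dlg1 under saline, Dlg1 under nicotine and Grik1 over both treatments. The number of the 7 genes called was 2 under saline and 1 under nicotine. It was 4 without a filter under saline, beside 3.28% of 13830 entries. Under nicotine it was 3 with DESeq2, without a filter and with the bias-adjusted fit, beside 7.80% of 6509, 2.65% of 13428 and 2.75% of 6509 entries, and 0 with library totals and with the replicate block. With a library left out it was 1 to 2 under saline, 0 to 1 under nicotine and 0 to 1 for the interaction, which had 1 (Shisa9) without a filter. All entries called under saline were 563 with DESeq2, 454 without a filter, 59 with the replicate block, 180 with the bias-adjusted fit and 33 to 55 with a library left out, against 109. Under nicotine they were 508, 356, 9 and 179, 105 with all libraries in 1 fit and 0 to 56 with a library left out, against 33. Over both treatments they were 877, 727 and 624 with DESeq2, no filter and the bias-adjusted fit, against 408. Position-checked entries fitted alone gave 33 of 502 (6.57%) under saline, 17 of 514 (3.31%) under nicotine and 72 of 549 (13.1%) over both, against 24 of 502 (4.78%), 9 of 517 (1.74%) and 71 of 548 (13.0%) of them in the fit of all entries. With DESeq2 and without a filter, nicotine gave 18 and 8 in Sst-neurons and 14 and 13 in Thy1-neurons, and the interaction 11 and 36, with 0 to 5 when a library was left out, all against 0. With library totals the split of higher and lower calls was 17 and 7 under nicotine, against 15 and 18, and 271 and 149 over both treatments, against 179 and 229. The cause of these moves was not tested.

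Signs changed for uncalled values. Lrfn4 between the cell types under nicotine was 0.32 with library totals, 0.43 with the replicate block and 0.066 with position-checked entries, and 0.017 over both treatments with totals. With nicotine, Dlg1 in Sst-neurons was 0.10 with totals. With the replicate block Grik1 was -0.056 in Sst-neurons and -0.27 in Thy1-neurons, Lrfn4 was -0.24 in Thy1-neurons, and the interaction of Grik1 was 0.21. That of Dlgap2 was 0.10 with totals. With a library left out, log2 fold changes of Lrfn4 ran from -2.09 to 0.22 under saline, -0.90 to 0.43 under nicotine, -1.17 to 0.046 over both, -0.14 to 2.29 with nicotine in Sst-neurons, -0.16 to 1.02 in Thy1-neurons and -0.57 to 1.86 for the interaction. Those of Grik1 ran from -0.092 to 0.72 in Sst-neurons, -0.41 to 7.36 in Thy1-neurons and -7.41 to 0.64 for the interaction. Dlg1 ran from -0.44 to 0.11 in Sst-neurons and -0.12 to 0.42 for the interaction, and Dlgap2 from -0.62 to 0.026, -0.48 to 0.54 and -0.77 to 0.26. In Thy1-neurons Shisa9 ran from -0.86 to 0.35 and Cnih2 from -0.53 to 0.11. Where a group kept 1 library, that library was assumed to vary like the others.

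The replicate numbers did not pair the libraries: deviations of same-numbered libraries correlated between -0.18 and 0.046 in 2 pairs a comparison. Without mitochondrially encoded genes in the total, mean CPM was 1.22 to 1.28 times as high in Sst-neurons and 1.48 to 1.56 times in Thy1-neurons. Beyond 1 SD moved Grin2a (75.7 in Sst+Nic, 51.7 in Thy1, 28.6 in Thy1+Nic), Shisa9 (175 and 137 in Thy1 and Thy1+Nic), Cnih2 (121 and 92.0), Dlg1 (108, 111, 685 and 532 in Sst, Sst+Nic, Thy1 and Thy1+Nic) and Dlgap2 (304, 280, 206 and 185).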
